A study of Mus musculus with 15 samples.

Results

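The genotype effect on ileal RNA was compared between 2 times after tamoxifen, using all 15 of the 15 libraries of the series. The quantity described is a difference of 2 differences on the log2 scale. From the difference between libraries labelled mutant and control at 3 months, the same difference at 8 days was subtracted. This time by genotype interaction is positive where the ratio of mutant to control was higher at 3 months, and negative where it was lower. RNA came from whole ileum, the distal small intestine, of adult mice, and every animal received 10 mg tamoxifen by repeated gavage. The 8-day cohort held 3 control libraries from Rfx6f/f mice and 4 from Rfx6f/f Vilin-CreERT2 mice, labelled mutant. The 3-month cohort held 4 control libraries, 2 from Rfx6f/f and 2 from Rfx6f/+ mice, and 4 labelled mutant from Rfx6f/f Vilin-CreERT2 mice. The controls carried loxP-flanked Rfx6 without the recombinase, so the presence of Cre differed between the groups together with the Rfx6 deletion. CreERT2 was driven by the Villin promoter, which is active throughout the intestinal epithelium and is not limited to hormone-producing cells. The cohorts stood in separate count tables, and the age of the animals at each time is given only as adult. Time, age and cohort cannot be told apart in either genotype. A shift shared by both genotypes of a cohort cancels in the interaction.

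Rfx6 is a transcription factor of enteroendocrine cells, the scattered epithelial cells that secrete hormones in response to food. It is known for its part in the formation of hormone cells of the gut and the pancreas. L cells make proglucagon and peptide YY, N cells make neurotensin, K cells make GIP, and enterochromaffin cells make serotonin and store granins. The epithelium around them is renewed continuously from stem cells in the crypts, and interferon-gamma from lymphocytes is known to induce antigen presentation and immunity-related GTPases in it.

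The targeted gene did not fall at either time. Rfx6 (ENSMUSG00000019900) stood at 1.37 to 1.65 CPM (counts per 1000000, scaled by TMM) in the controls at 8 days, at 1.47 to 2.1 in the libraries labelled mutant at 8 days, at 1.46 to 1.74 in the controls at 3 months and at 2.26 to 3.34 in the libraries labelled mutant at 3 months. At 3 months the groups did not overlap and Rfx6 was higher by 0.70 on the log2 scale (SE 0.16, edgeR adjusted p 0.0146), and the interaction was 0.50 (SE 0.24, adjusted p 0.309). These counts sum the whole gene, and the deleted exons were not looked at separately. Whole-gene counts therefore do not show whether the targeted exons were lost, and groups are called by their labels throughout.

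In units of 1000000 counts, libraries of 8 days held 30.5 to 54.5, and those of 3 months 26.1 to 36.3. A gene at 3 counts, the floor used here, corresponded to 0.0566 to 0.0999 CPM in the 8-day libraries and to 0.0778 to 0.115 CPM in the others. The first principal component held 47.4% of the variance and put all 7 libraries of 8 days below 0 and all 8 of 3 months above 0. The second held 11.4% and separated labelled mutants from controls at 3 months, but not at 8 days. The ileal markers Fabp6 and Slc10a2, which handle bile acids, were present in every library, at 557 to 2691 and at 195 to 596 CPM. Genes of fat, pancreas and mesentery, which are no part of the ileal wall, were uneven between libraries, with a summed level of 45.3 to 244 CPM at 8 days and of 68.0 to 1383 CPM at 3 months.

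The interaction passed the test for 141 of 17959 genes (0.785%; edgeR quasi-likelihood F test on all 15 libraries, Benjamini-Hochberg adjusted p under 0.05). It was positive for 68 (0.379%) and negative for 73 (0.406%). Called members of the gene lists below are read against these shares. At an unadjusted p under 0.05 there were 2973 genes. In the same fit, 25 genes (0.139%) differed by genotype label at 8 days, 9 upward (0.0501%) and 16 downward (0.0891%) in labelled mutants. At 3 months 2271 genes differed (12.6%), 1148 higher (6.39%) and 1123 lower (6.25%). The difference between these counts is no test of a change over time, and the interaction is that test. The cohorts themselves lay much further apart. Between 8 days and 3 months 8093 genes differed in the controls (45.1%), and 6795 did so among labelled mutants (37.8%).

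**Figure D1:**
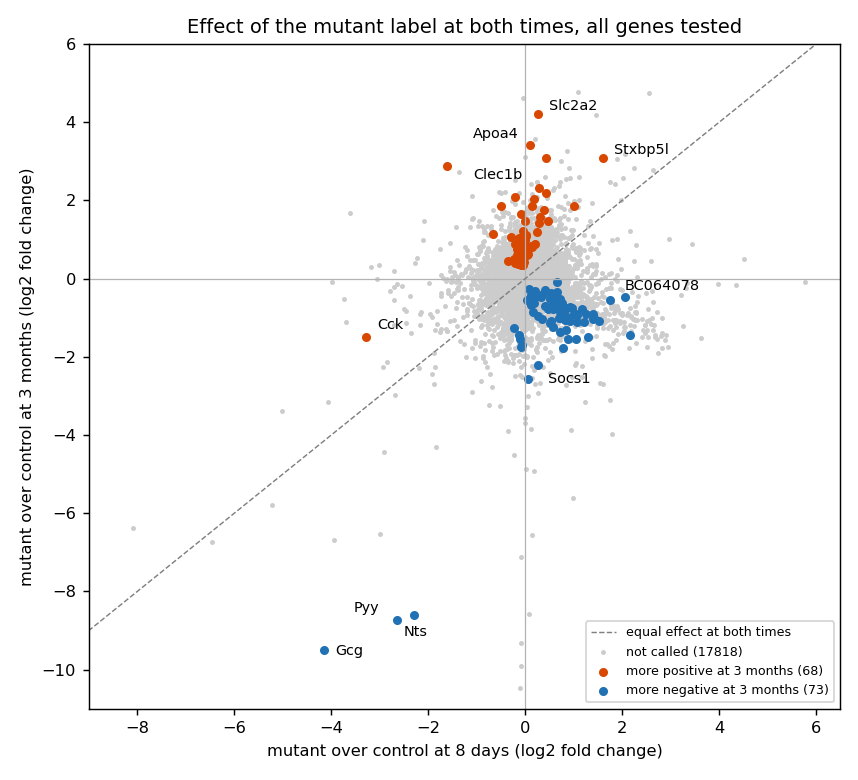
Each point is 1 of 17959 genes, with the log2 fold change of libraries labelled mutant over control at 8 days on the x axis and at 3 months on the y axis. Coloured points passed the interaction test, 68 above the dashed line of equal effects and 73 under it. Gcg, Nts, Pyy and Cck are the labelled points far to the left of 0 on the x axis.

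Most of the 141 genes were called between labels at 3 months and not at 8 days. The sign was opposite at the 2 times for 108 of them (76.6%, against 44.5% of all genes tested). The effect kept its sign and was larger at 3 months for 32 (22.7%, against 38.3%). It kept its sign but was smaller at 3 months for 1, Cck (0.709%, against 17.2%). Of the 141, 119 were called at 3 months only, 65 with more and 54 with less RNA in labelled mutants. A further 2 were higher and 4 were lower at both times, 1 went up at 8 days and down at 3 months (BC064078), and 1 went up at 8 days only (Abi3). The other 14 were called at neither time alone. Groups of labelled mutants and controls did not overlap for 133 of the 141 at 3 months and for 42 at 8 days, against 18.8% and 7.68% of all genes tested. These signs and separations come from the libraries that gave the interaction, so they describe the called genes and are no further support.

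The 4 groups showed which libraries carried the difference. The shift between cohorts was larger in the controls for 100 of the 141 genes and larger in the libraries labelled mutant for 41, and over all genes tested it was larger in the controls for 60.7%. The shift passed the test for 78 genes in the controls alone (55.3%, against 17.8% of all genes tested). It did so for 27 in labelled mutants alone (19.1%, against 10.5%) and for 36 in both (25.5%, against 27.3%). The 4 controls of 3 months lay wholly outside the range of the other 11 libraries for 68 genes (48.2%, against 10.1% of all genes tested), 24 above and 44 below. The 4 labelled mutants of 3 months did so for 30 genes (21.3%, against 2.68%), 22 above and 8 below. Gcg, Nts, Pyy, Chga, Chgb, Olfr558, Scn3a and Stxbp5l were among the latter. Among the former were Cd274, Socs1, Slc2a2 and Clec1b.

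**Figure D2:**
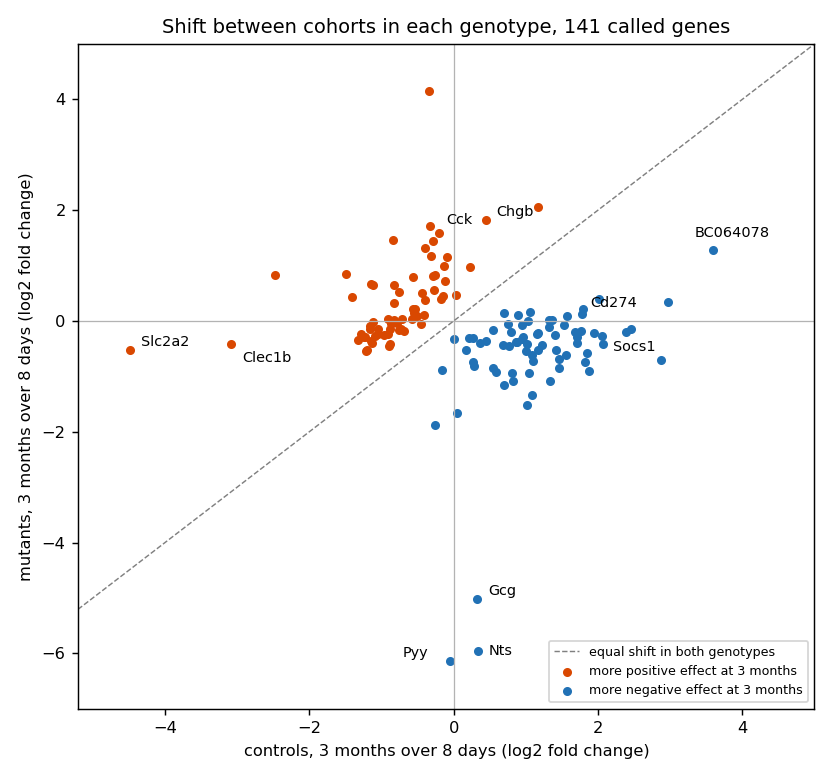
Each point is 1 of the 141 called genes, with the log2 fold change of 3 months over 8 days in controls on the x axis and in libraries labelled mutant on the y axis. Gcg, Nts and Pyy lie near 0 for controls and at -5.02 to -6.13 for libraries labelled mutant, while Slc2a2 and Clec1b lie at -4.48 and -3.08 for controls and closer to 0 for libraries labelled mutant.

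The number of called genes depended on single libraries. It fell to 26, 17 and 15 without control replicates 1, 2 and 3 of 3 months, to 34, 15 and 10 without control replicates 1, 2 and 3 of 8 days, to 41 and 35 without labelled mutant replicates 1 and 3 of 3 months, and to 85, 33 and 33 without labelled mutant replicates 2, 3 and 4 of 8 days. It rose to 345 and 395 without labelled mutant replicates 2 and 4 of 3 months and to 749 without labelled mutant replicate 1 of 8 days. It was 131 without control replicate 4 of 3 months. Of the 141 genes, 74 were called in fewer than 5 of these 15 fits. Among those named here, P2ry10 and Cst7 were called in 3, and Reg4, Junb, Bhlhe41, Vwf and Abi3 in 4. Pdcd1 and Cd48 were called in 5, Apoa4, Nt5e and Esr1 in 6, and Irgm1 in 7. Tnfsf8 and Slamf7 were called in 8, and Cck, Por, Irs1, Fat4 and Bean1 in 9. Of the 141, 9 were called in each of the 15 fits. They were Gcg, Nts, Pyy, Olfr558, Scn3a, Cd274, Clec1b, BC064078 and 9930012K11Rik. Fitted with Rfx6f/f controls only, which leaves 2 controls at 3 months, the test called 5 genes, and Gcg, Nts, Olfr558 and BC064078 were among them.

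**Figure D3:**
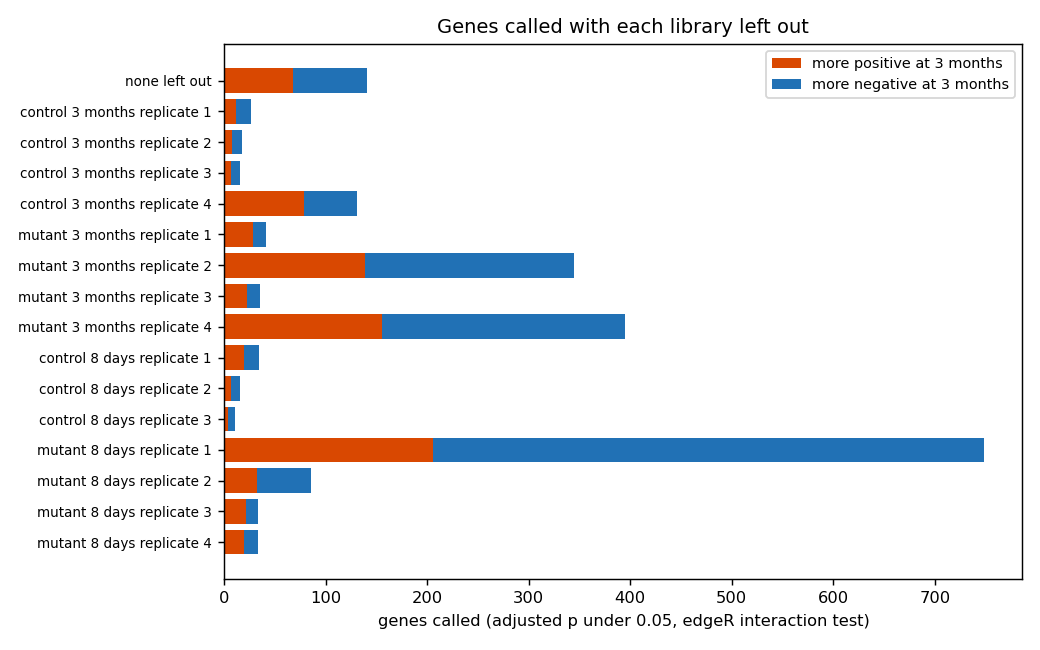
Bars give the number of genes called by the interaction test with each library left out in turn, split by direction, and the top bar gives the 141 of the full set. The counts run from 10 to 749.

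Peptide hormones of L and N cells showed the largest negative interactions with an effect already present at 8 days. Gcg (ENSMUSG00000000394) encodes proglucagon, the precursor of GLP-1. It stood at 37.2, 44.5 and 43.2 CPM in the controls of 8 days and at 1.59, 3.58, 1.25 and 2.96 in the libraries labelled mutant. At 3 months it stood at 53.4, 38.6, 48.0 and 69.1 CPM in its controls, while labelled mutants held 1, 0, 3 and 5 counts. The controls of both cohorts overlapped, and every labelled mutant of 3 months lay below every labelled mutant of 8 days. The log2 fold change was -4.15 (SE 0.32) at 8 days and -9.49 (SE 0.48) at 3 months, and the interaction was -5.34 (SE 0.64, edgeR adjusted p 0.00383). At so few counts the size of a fitted fold change depends on the fit, so the counts show the level better than the fold.

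Nts (ENSMUSG00000019890), which encodes neurotensin, stood at 42.9, 53.1 and 55.0 CPM in the controls of 8 days and at 3.29, 19.1, 5.45 and 13.2 in the libraries labelled mutant. At 3 months the controls stood at 62.8, 47.8, 59.2 and 85.1 CPM and the libraries labelled mutant at 6, 8, 4 and 3 counts. The spread among labelled mutants was wide at 8 days, with replicates 2 and 4 highest, and all of them lay above those of 3 months. The interaction was -6.30 (SE 0.77, adjusted p 0.00409). Pyy (ENSMUSG00000017311) encodes peptide YY, a hormone that slows gut movement and reduces food intake. It stood at 18.8 to 24.8 CPM in controls of 8 days, at 1.33, 5.91, 1.33 and 5.26 in libraries labelled mutant of 8 days, at 16.7 to 24.0 in controls of 3 months and at 2, 0, 3 and 1 counts in libraries labelled mutant of 3 months. Replicates 2 and 4 of 8 days were again the highest of the labelled mutants. The interaction was -6.08 (SE 0.87, adjusted p 0.0101). Whole tissue was sequenced, so fewer hormone cells and less RNA per cell cannot be told apart.

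Other hormone genes were reduced at both times without a called interaction, and 1 was reduced less at 3 months. Gip (ENSMUSG00000014351), the hormone of K cells, was at 0 to 2 counts per labelled mutant library at 8 days and at 1 count in each at 3 months, against 4.36 to 9.59 and 1.61 to 3.60 CPM in the controls. Ghrl (ENSMUSG00000064177), which encodes ghrelin, was likewise at 0 to 2 counts and at 1 count in each. At these floors a further fall between the times was not detectable. Sst (ENSMUSG00000004366), the somatostatin gene of D cells, fell by 1.61 at 8 days (SE 0.29, adjusted p 0.0454) and by 1.34 at 3 months (SE 0.27, adjusted p 0.00747), with an interaction of 0.27 (SE 0.40, adjusted p 0.796). Cck (ENSMUSG00000032532) encodes cholecystokinin, which stimulates gallbladder contraction and pancreatic secretion. Its controls lay at 3.63, 5.00 and 4.22 CPM at 8 days and at 3.65, 3.82, 3.76 and 3.62 at 3 months, and its libraries labelled mutant at 0.276, 0.420, 0.435 and 0.666 and at 1.23, 1.34, 1.74 and 0.973. All labelled mutants of 3 months lay above those of 8 days and below every control. The interaction was 1.79 (SE 0.31, adjusted p 0.0265). It was the single called gene whose effect kept its sign and was smaller at 3 months.

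Of the 23 tested transcription factors of the endocrine lineage, 0 passed the interaction test (edgeR), 7 were positive and 3 negative at an unadjusted p under 0.05. Isl1 (ENSMUSG00000042258) and Pax6 (ENSMUSG00000027168), which act in hormone cell differentiation and hormone gene transcription, were lower at both times. Isl1 was at 0 to 2 counts in libraries labelled mutant at 8 days and at 3 to 8 counts at 3 months, with an interaction of 1.62 (SE 0.59, adjusted p 0.172). The interaction of Pax6 was -0.39 (SE 0.35, adjusted p 0.637).

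Genes of enterochromaffin cells had positive interactions. All 10 tested genes of the serotonin programme were positive. Of them 2 passed the test, Chga and Chgb, against 0.379% of all genes called positive. The median interaction of the 10 genes was 0.66, against -0.01 over all genes tested. Their median genotype effect was 0.21 at 8 days, where 0 were called and 4 were higher at an unadjusted p under 0.05, and 0.66 at 3 months, where all 10 were positive and 6 were called higher, against 6.39% of all genes tested. Chga (ENSMUSG00000021194) encodes chromogranin A, a protein of secretory granules. It stood at 25.9, 35.3 and 38.8 CPM in controls and at 39.8, 34.3, 38.3 and 53.8 in libraries labelled mutant at 8 days. At 3 months it stood at 31.7, 26.8, 30.9 and 35.7 CPM in controls and at 91.9, 88.1, 100.2 and 89.8 in libraries labelled mutant. The groups overlapped at 8 days and were far apart at 3 months, with an interaction of 1.25 (SE 0.21, adjusted p 0.0231). Chgb (ENSMUSG00000027350), its relative chromogranin B, stood at 42.0 to 53.3 and 52.8 to 81.9 CPM in controls and labelled mutants of 8 days and at 58.1 to 87.2 and 193 to 262 CPM at 3 months, with an interaction of 1.38 (SE 0.23, adjusted p 0.0231). Tph1 (ENSMUSG00000040046), the enzyme that limits the rate of serotonin synthesis in the gut, stood at 5.52 to 7.39, 9.17 to 12.5, 5.56 to 11.9 and 25.1 to 32.2 CPM in these 4 groups in turn, and its interaction of 1.19 (SE 0.28) did not pass the test (adjusted p 0.0564).

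Among receptors and channels of enterochromaffin cells, 2 of 12 tested genes passed the test, both positive, against 0.379% of all genes called positive. Of the 12, 11 were positive (48.1% of all genes tested), with a median of 0.56. Their median shift between the cohorts was -0.50 in controls and -0.09 in libraries labelled mutant. Their median genotype effect was -0.10 at 8 days and 0.35 at 3 months. Olfr558 (ENSMUSG00000070423) encodes an odorant receptor that these cells carry as a sensor of short-chain fatty acids. It stood at 1.06, 1.21 and 1.34 CPM in controls of 8 days, at 1.43, 1.34, 1.23 and 1.33 in libraries labelled mutant of 8 days, at 0.888, 0.946, 1.19 and 0.965 in controls of 3 months and at 3.74, 3.55, 4.07 and 3.16 in libraries labelled mutant of 3 months. At 8 days the groups overlapped, and at 3 months every labelled mutant lay above all other libraries. The interaction was 1.73 (SE 0.20, adjusted p 0.00383). Scn3a (ENSMUSG00000057182), a voltage-gated sodium channel subunit, stood at 6.32 to 6.95, 5.43 to 6.71, 5.29 to 5.89 and 9.53 to 11.7 CPM in the same order, with an interaction of 1.10 (SE 0.14, adjusted p 0.00479).

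In the list of granins, prohormone processing and secretion, 21 of 23 tested genes were positive (median 0.36). The test was passed by 2, Stxbp5l and Rimbp2, against 0.379% of all genes called positive. Neither is a granin, and the called granins Chga and Chgb were counted in the serotonin list instead. Enteric neuron and glia genes, a list that also holds Snap25, were positive in 17 of 18 tested, with a median interaction of 0.37, 3 at an unadjusted p under 0.05 and 0 called (edgeR). Their median shift between the cohorts was -0.64 in controls and -0.22 in libraries labelled mutant. Their summed level was 94.5 to 129 CPM in controls and 88.3 to 118 in labelled mutants of 8 days, and 78.6 to 84.6 and 78.6 to 115 at 3 months. The part of neural tissue in the secretion genes was not tested. Stxbp5l (ENSMUSG00000022829), which encodes tomosyn-2, an inhibitor of vesicle fusion, was higher at both times. It stood at 2.81, 2.80 and 2.70 CPM in controls and 8.19, 10.4, 8.04 and 7.10 in libraries labelled mutant at 8 days, and at 2.94, 1.86, 1.76 and 2.34 against 18.5, 16.2, 18 and 23.1 at 3 months. No groups overlapped within a time, and the interaction was 1.48 (SE 0.24, adjusted p 0.0224). Rimbp2 (ENSMUSG00000029420), which links calcium channels to the release machinery, had a similar interaction, 1.15 (SE 0.19, adjusted p 0.0224), with another order of groups. It lay at 4.97 to 5.75, 4.36 to 5.50, 2.56 to 3.33 and 5.02 to 7.05 CPM, so the controls of 3 months were the low group. Chga, Chgb, Stxbp5l and Rimbp2 were called in 11, 10, 11 and 12 of the 15 fits with 1 library left out, and each lost its call without control replicate 2 or 3 of 8 days or control replicate 3 of 3 months. Without control replicate 2 of 3 months Chga, Chgb and Stxbp5l lost theirs, and without replicate 1 Chgb did.

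**Figure D4:**
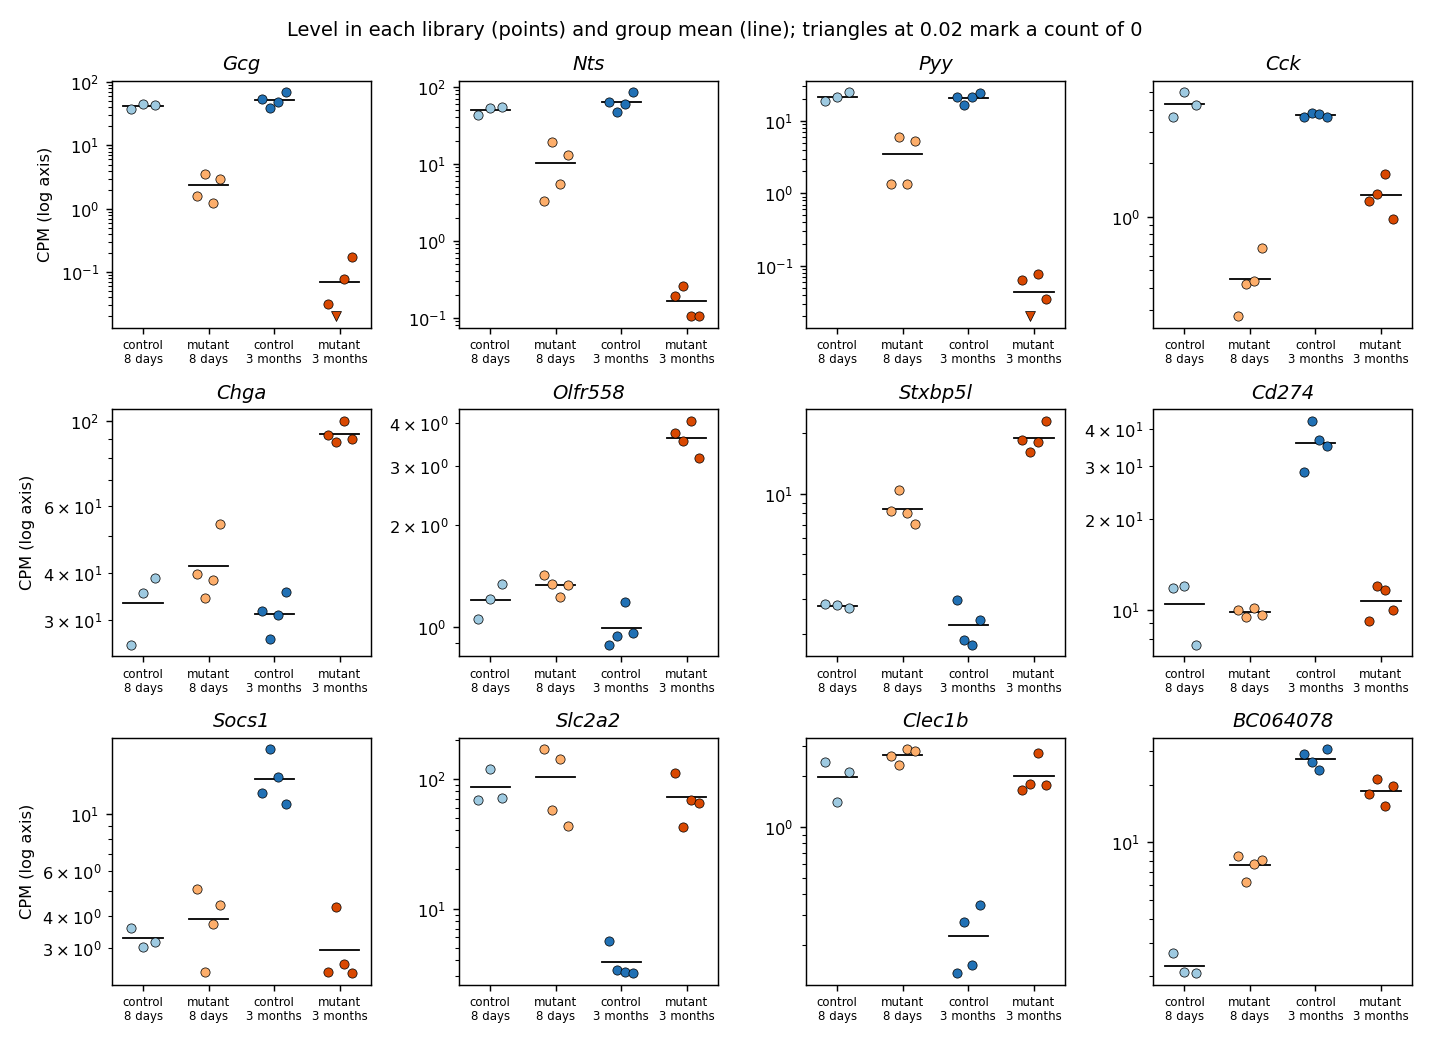
Points give the CPM of each library on a log axis, with a line at the group mean and triangles at 0.02 for a count of 0. Gcg, Nts and Pyy are lowest in the libraries labelled mutant of 3 months, Chga, Olfr558 and Stxbp5l are highest there, and for Cd274, Socs1, Slc2a2 and Clec1b the controls of 3 months stand apart.

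Interferon-gamma response genes held the most called genes with negative interactions of the 35 gene lists. Of 27 tested, 26 were negative, 24 of them at an unadjusted p under 0.05, which 2973 of all 17959 genes reached in either direction. The test was passed by 5, Cd274, Socs1, Irgm1 and Tgtp1 among them, against 0.406% of all genes called negative. The median interaction was -1.32. The median genotype effect was -0.06 at 8 days, where 0 were called and 1 was lower at an unadjusted p under 0.05, and -1.58 at 3 months, where all 27 were negative and 25 were called lower, against 6.25% of all genes tested. The controls carried the difference. Their median shift from 8 days to 3 months was 1.33, against 0.02 in the libraries labelled mutant, and the controls of 3 months lay above all other 11 libraries for 24 of the 27 genes, against 5.373% of all genes tested. The summed level was 967 to 1298 CPM in controls and 863 to 1319 in libraries labelled mutant at 8 days, and 2240 to 2792 and 742 to 1495 at 3 months.

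Irgm1, Socs1 and Tgtp1 are shown with the stretch of their promoter that holds an interferon-stimulated response element, written GAAANNGAAA and searched on both strands in the 250 bases before the gene's start (RefSeq, GRCm38.p6). They are shown because the element is the letter pattern through which interferon-induced factors are known to act. Capitals mark the matched letters, and overlapping matches are joined.

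Irgm1: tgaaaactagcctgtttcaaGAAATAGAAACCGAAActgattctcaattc

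Socs1: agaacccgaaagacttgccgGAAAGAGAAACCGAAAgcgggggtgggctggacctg

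Tgtp1: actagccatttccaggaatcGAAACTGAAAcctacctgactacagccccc

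The Irgm1 stretch is chr11:48871421-48871470 on the minus strand with 2 overlapping matches, the Socs1 stretch is chr16:10785584-10785639 on the minus strand with 2, and the Tgtp1 stretch is chr11:48992294-48992343 on the minus strand with 1. Of the 27 tested genes, 18 had a promoter in the table, and 10 of these held the element, which was in 2.977% of 32851 promoters. The gamma-activated site, TTCNNNGAA, was in 8 of the 18 and in 7.02% of promoters. Cd274 held no match to GAAANNGAAA. For the hormone genes the half-site GTTGCC of the X-box, the motif known for RFX factors, was searched. It was in 0 of 5 L-, K- and N-cell hormone promoters and in 10.43% of all. A gene counted if any of its promoters held a match, while the shares count single promoters. The first list was chosen as interferon response genes, and 5 hormone genes are few, so these comparisons are no test. A match describes the letters of this window only, and no binding was measured here.

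Cd274 (ENSMUSG00000016496) encodes PD-L1, a ligand that restrains T cells. It stood at 11.8, 12.0 and 7.64 CPM in controls and at 10.0, 9.45, 10.2 and 9.63 in libraries labelled mutant at 8 days, and at 28.7, 42.5, 36.6 and 34.9 against 9.19, 12.0, 11.6 and 10.0 at 3 months. The controls of 3 months stood above all others, while the other 3 groups overlapped. The interaction was -1.65 (SE 0.21, adjusted p 0.0053). Socs1 (ENSMUSG00000038037), an inhibitor of interferon signalling that interferon itself induces, stood at 3.05 to 3.60, 2.42 to 5.08, 11 to 17.8 and 2.40 to 4.35 CPM in the same order, with an interaction of -2.47 (SE 0.36, adjusted p 0.0104). Its call was lost without control replicate 3 of 8 days (adjusted p 0.059). Irgm1 (ENSMUSG00000046879), an immunity-related GTPase, stood at 38.4 to 43.3, 32.4 to 47.9, 87.6 to 127 and 29.9 to 47.4 CPM (interaction -1.32, SE 0.23, adjusted p 0.0265). Tgtp1 (ENSMUSG00000078922), another GTPase, had an interaction of -2.63 (SE 0.54), close to the threshold at an adjusted p of 0.0487, and was called in 5 of the 15 fits with 1 library left out.

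Lymphocyte lists were negative in nearly all their members. Of 23 tested T cell and cytotoxic genes, 22 were negative and 18 were so at an unadjusted p under 0.05, but 0 passed the test (edgeR). Their median was -1.43, with 0.21 at 8 days and -1.11 at 3 months, where 17 were called lower, against 6.25% of all genes tested. The controls shifted by a median of 1.18 between the cohorts, with 20 called higher (23.0% of all genes tested), and the libraries labelled mutant by -0.20, with 0 called higher (18.3% of all genes tested). The controls of 3 months lay above all other libraries for 12 of the 23 genes, against 5.373% of all genes tested. Of 20 tested B cell and plasma cell genes, all 20 were negative with a median of -3.55, 18 at an unadjusted p under 0.05, and 1 passed the test, Mzb1. The median genotype effect had opposite signs at the 2 times. It was 2.29 at 8 days, where 16 were higher at an unadjusted p under 0.05 and 0 were called, and -1.16 at 3 months, where 4 were called lower (6.25% of all genes tested).

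P2ry10 (ENSMUSG00000050921), a receptor of lymphocytes, stood at 2.61, 2.86 and 2.38 CPM in controls and at 2.90, 5.76, 9.70 and 11.7 in libraries labelled mutant of 8 days, with replicate 1 nearest the controls. At 3 months it stood at 10.3 to 19.4 CPM in controls and 3.89 to 10.4 in libraries labelled mutant. The interaction was -2.60 (SE 0.56, adjusted p 0.0496). Mzb1 (ENSMUSG00000024353), a chaperone of antibody assembly in plasma cells, stood at 8.69, 9.01 and 10.0 CPM against 12.4, 11.6, 19.4 and 22.1 at 8 days and at 28.0, 34.1, 32.7 and 24.1 against 12.1, 14.6, 12.0 and 18.1 at 3 months. Labelled mutants were above controls at 8 days and below them at 3 months without overlap (interaction -1.89, SE 0.30, adjusted p 0.0204). Tnfrsf13b (ENSMUSG00000010142), the B cell receptor TACI, showed the same crossing, at 5.43 to 6.70, 9.64 to 17.5, 13.5 to 18.2 and 7.29 to 13 CPM (interaction -1.95, SE 0.32, adjusted p 0.0224). The difference at 8 days was not called for Mzb1 or Tnfrsf13b, and 7.68% of all genes tested had groups without overlap at that time.

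The crossing also held for Tnfsf8 (ENSMUSG00000028362), the CD30 ligand, with an interaction of -2.60 (SE 0.44, adjusted p 0.0264), and for Cd48 (ENSMUSG00000015355), a surface protein of lymphocytes, with -1.35 (SE 0.24, adjusted p 0.0265). It held for St6gal1 (ENSMUSG00000022885), which adds sialic acid to glycoproteins (-1.12, SE 0.17, adjusted p 0.0145), and for Kcnab2 (ENSMUSG00000028931), a potassium channel subunit (-1.51, SE 0.25, adjusted p 0.0231). The difference at 8 days was not called for Tnfsf8, Cd48, St6gal1 or Kcnab2 either. Slamf7 (ENSMUSG00000038179), Pdcd1 (ENSMUSG00000026285), which encodes PD-1, and Cst7 (ENSMUSG00000068129), all lymphocyte genes, had interactions of -1.21 (SE 0.21), -2.78 (SE 0.57) and -2.57 (SE 0.54) with overlapping groups at 8 days and adjusted p of 0.0264, 0.0487 and 0.0487. Junb (ENSMUSG00000052837), an immediate early gene, and Bhlhe41 (ENSMUSG00000030256), a clock repressor, were the called members of their lists, at -0.76 (SE 0.16, adjusted p 0.0487) and -1.91 (SE 0.42, adjusted p 0.0497). A B cell score entered as a covariate left 2 called genes, BC064078 at -2.37 and Nt5e at 3.46. The score was the mean log2 level of the B cell list, which holds Mzb1. That list had negative interactions itself, so the score carried part of the tested contrast. Lost calls therefore cannot show a part of lymphoid tissue. The score moved the interaction of P2ry10 to -0.68, of Mzb1 to -1.17, of Tnfsf8 to -1.33 and of Pdcd1 to -1.20. It moved that of Cst7 to -1.52, of Cd48 to -0.74, of Kcnab2 to -0.94 and of Bhlhe41 to -1.08. The median of the B cell list became 0.29. The interaction of Slamf7 was -1.16, that of St6gal1 -1.09 and that of Junb -0.58. That of Cd274 was -1.82 and also lost its call (edgeR adjusted p 0.0995). The part of lymphoid tissue, such as Peyer's patches, in the harvested pieces was not tested.

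**Figure D5:**
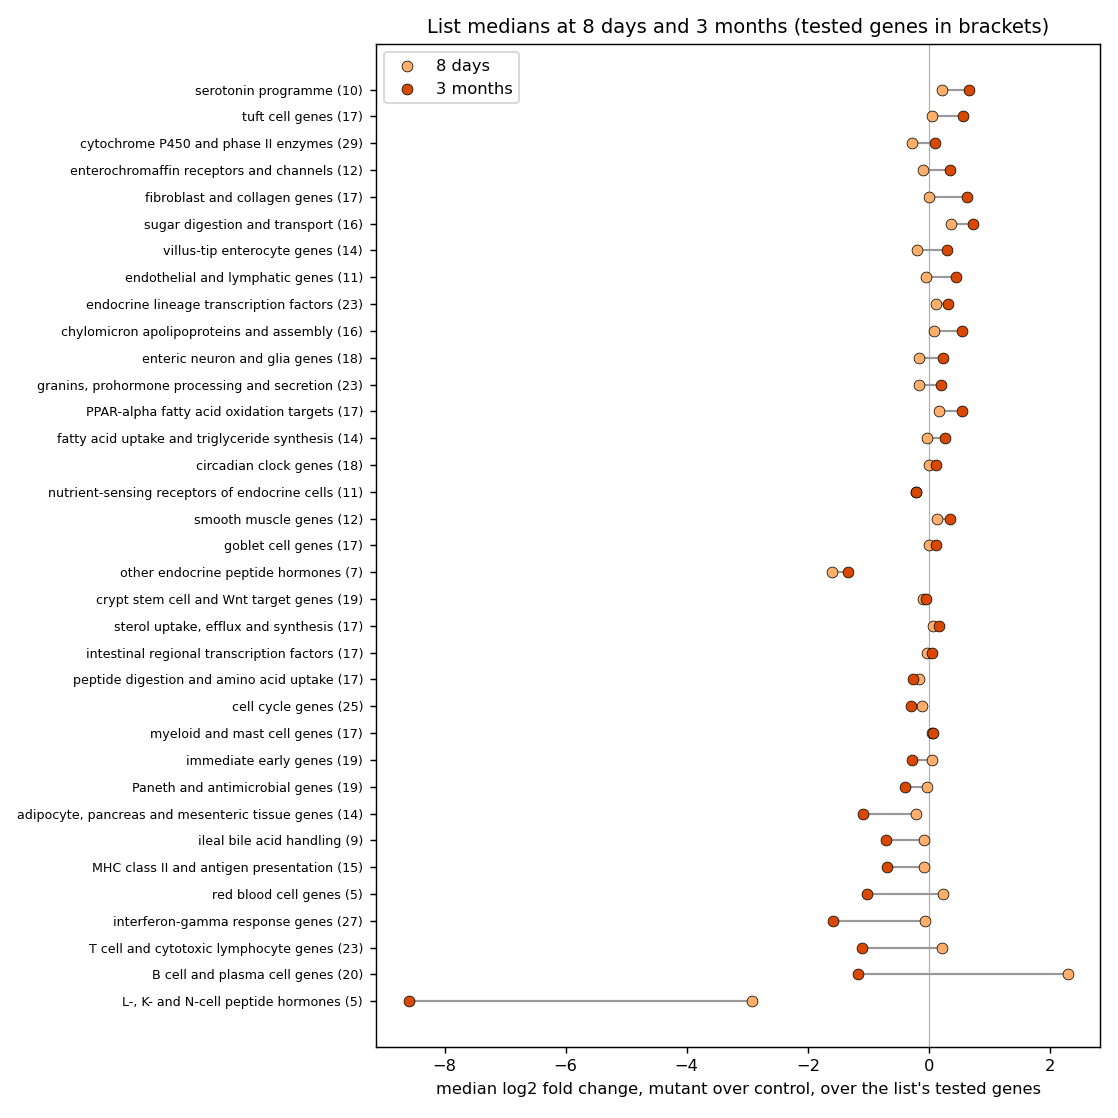
For each gene list, points give the median log2 fold change of libraries labelled mutant over control at 8 days and at 3 months, joined by a line, with the number of tested genes in brackets. Lists are ordered by their median interaction, from -5.34 for L-, K- and N-cell hormones, where values of genes with few counts depend on the fit, to 0.66 for the serotonin programme.

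Absorptive lists differed in direction. Of 17 tested genes of peptide digestion and amino acid uptake 7 were positive and 10 negative (median -0.11), and of 9 tested genes of ileal bile acid handling 2 were positive and 7 negative (median -0.44, 5 negative at an unadjusted p under 0.05), with 0 called in either list (edgeR). Of 16 tested genes of sugar digestion and transport, 15 were positive and 1 passed the test, Slc2a2. Their median interaction was 0.53, with 0.37 at 8 days, where 2 were called higher (0.0501% of all genes tested), and 0.73 at 3 months, where 9 were (6.39% of all genes tested). For 7 of these 16 genes the controls of 3 months lay below all other libraries, as they did for 4.733% of all genes tested. Slc2a2 (ENSMUSG00000027690) encodes GLUT2, the glucose and fructose transporter of absorptive cells. It stood at 67.9, 119 and 71.6 CPM in controls and at 169, 57.4, 143 and 43.3 in libraries labelled mutant of 8 days, and at 5.60, 3.36, 3.26 and 3.17 against 111, 42.6, 68.3 and 65.4 at 3 months. The controls of 3 months lay below every other library by a wide margin, and the other 3 groups overlapped. The interaction was 3.96 (SE 0.61, adjusted p 0.0179), and its call was lost without control replicate 3 of 3 months (adjusted p 0.0507) or control replicate 2 of 8 days (adjusted p 0.0565).

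Apoa4 (ENSMUSG00000032080), an apolipoprotein of chylomicrons, was the called member of 16 tested chylomicron genes, 15 of which were positive (median 0.38). For 3 of these 16 the controls of 3 months lay below all other libraries (4.733% of all genes tested). It stood at 616, 2012 and 1703 CPM in controls and at 1905, 458, 2600.2 and 1249.8 in libraries labelled mutant of 8 days, and at 229, 353, 304 and 156 against 2668, 2031, 2590.1 and 3755 at 3 months (interaction 3.30, SE 0.66, adjusted p 0.0473). At 8 days its labelled mutant replicate 2 was the lowest of the cohort. Nt5e (ENSMUSG00000032420), an ecto-enzyme of villus tips that makes adenosine, rose between the cohorts in the labelled mutants, at 34.7 to 79.9 CPM at 8 days and 89.5 to 248 at 3 months, against 46.0 to 87.4 and 30.2 to 44.8 in controls (interaction 2.32, SE 0.44, adjusted p 0.041). Por (ENSMUSG00000005514), the electron donor of cytochrome P450 enzymes, had 0.95 (SE 0.16, adjusted p 0.0254), and Irs1 (ENSMUSG00000055980), an adaptor of the insulin receptor, 0.82 (SE 0.14, adjusted p 0.0265). Reg4 (ENSMUSG00000027876), a secreted lectin of endocrine and secretory cells, had 2.35 (SE 0.49, adjusted p 0.0487).

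Gata4 (ENSMUSG00000021944), a transcription factor of the proximal small intestine that fades in the distal ileum, stood at 12.4, 24.8 and 21.2 CPM in controls and at 18.3, 0.639, 24.7 and 1.30 in libraries labelled mutant of 8 days, and at 3.24, 3.63, 1.61 and 1.83 against 3.08, 6.88, 3.99 and 12.7 at 3 months. Labelled mutant replicates 2 and 4 of 8 days, which were low in Gata4, were also the lower pair in Slc2a2 and Apoa4 and the higher pair in Nts and Pyy. At 3 months the controls followed this order for Slc2a2, with replicates 1 and 2 the higher pair in both genes, but not for Apoa4, where replicates 2 and 3 were highest. The labelled mutants of 3 months did not follow it for Slc2a2, since replicate 1 had the lowest Gata4 of its group and the highest Slc2a2, 111 CPM. Fabp6 (ENSMUSG00000020405), the ileal bile acid carrier, stood at 1319.7 to 2024, 1055 to 1985, 1969 to 2691 and 557 to 1151 CPM in the same order of groups, with an interaction of -1.13 (SE 0.33, adjusted p 0.0982). With the Gata4 level as a covariate the interaction of Slc2a2 was 3.31 and that of Apoa4 2.26, neither called, the median of the sugar list was 0.02, and Gcg, Nts and Pyy stayed called at -4.42, -4.77 and -4.39. With the B cell score as a covariate all 3 lost their call, at -5.02, -5.30 and -5.11 (edgeR adjusted p 0.0995, 0.195 and 0.22). The part of the position along the ileum in these results was not tested beyond this.

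Most stromal and vascular genes had positive interactions, and few passed the test. Of 17 tested fibroblast and collagen genes, 16 were positive with a median interaction of 0.55, 13 at an unadjusted p under 0.05. The test was passed by 2, Col6a2 and Col6a3, against 0.379% of all genes called positive. The genotype effect had a median of 0.00 at 8 days and 0.63 at 3 months, where 13 were called higher, against 6.39% of all genes tested. The controls of 3 months lay below all other libraries for 12 of the 17 genes, against 4.733% of all genes tested. Col6a3 (ENSMUSG00000048126), a chain of collagen VI, stood at 389, 389 and 416 CPM in controls and at 411, 423, 337 and 336 in libraries labelled mutant of 8 days, and at 170, 166, 183 and 151 against 257, 334, 398 and 238 at 3 months (interaction 0.95, SE 0.20, adjusted p 0.0487). Col6a2 (ENSMUSG00000020241), its partner chain, had 0.81 (SE 0.17, adjusted p 0.0487). Both were called in 3 of the 15 fits with 1 library left out.

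Of 11 tested endothelial and lymphatic genes 10 were positive (median 0.49) and 2 passed the test, against 0.379% of all genes called positive. Clec1b (ENSMUSG00000030159) encodes CLEC-2, the receptor for podoplanin known from platelets. It stood at 2.41, 1.40 and 2.11 CPM in controls and at 2.62, 2.30, 2.87 and 2.80 in libraries labelled mutant of 8 days, and at 0.137, 0.275, 0.153 and 0.345 against 1.64, 1.79, 2.72 and 1.77 at 3 months. The controls of 3 months, at 4 to 10 counts each, lay far below the rest. The interaction was 2.67 (SE 0.37, adjusted p 0.0101). Vwf (ENSMUSG00000001930), the von Willebrand factor of endothelium, stood at 61.9 to 68.3, 65.1 to 75.5, 32.1 to 39.6 and 54.7 to 79.0 CPM (interaction 0.73, SE 0.15, adjusted p 0.0487). With the B cell score as a covariate the median interaction of the fibroblast list was 0.22 and that of the endothelial list 0.22, and Col6a3 and Vwf were uncalled at 0.41 and 0.43. Plod1 (ENSMUSG00000019055), which hydroxylates collagen, Fat4 (ENSMUSG00000046743), a large cadherin, and Ptpru (ENSMUSG00000028909), a receptor phosphatase, had 0.84 (SE 0.14), 0.75 (SE 0.13) and 0.98 (SE 0.16), with adjusted p of 0.0241, 0.0264 and 0.0231 and the controls of 3 months as the low group. Wnt4 (ENSMUSG00000036856), a Wnt ligand, had 1.27 (SE 0.21, adjusted p 0.0254), and its controls of 3 months were lowest while its labelled mutants of 3 months were highest. In the labelled mutants of 3 months alone, St3gal6 (ENSMUSG00000022747), a sialyltransferase, and Bean1 (ENSMUSG00000031872) stood above all other libraries, with 0.89 (SE 0.14, adjusted p 0.0204) and 1.36 (SE 0.24, adjusted p 0.0265).

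BC064078 (ENSMUSG00000087150), a gene without a known product, had the smallest p of the interaction test and was chosen after its values were seen. It stood at 2.64, 2.12 and 2.07 CPM in controls and at 8.51, 6.21, 7.73 and 8.06 in libraries labelled mutant of 8 days, and at 28.8, 26.1, 23.8 and 30.6 against 17.9, 21.3, 15.5 and 19.7 at 3 months. No 2 of the 4 groups overlapped. The labelled mutants were higher by 1.75 at 8 days (SE 0.15, adjusted p 2.61e-05) and fell by 0.56 relative to controls at 3 months (SE 0.12, adjusted p 0.0114), while the level in controls rose by 3.59 between the cohorts (SE 0.16). The interaction was -2.30 (SE 0.19, adjusted p 0.000122), and it was called with each library left out, with Rfx6f/f controls only, and with either covariate.

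The genes that already differed at 8 days mostly kept their direction. Of the 25, 23 had the same sign at 3 months, against 55.5% of all genes tested, 21 were called at 3 months and 20 of them in the same direction. The interaction was called for 8, against 0.785% of all genes tested, namely Gcg, Nts, Pyy, Cck, Stxbp5l, BC064078, Esr1 and Abi3. The 8-day effect that selected the 25 also enters the interaction, so this count is no test. The counts at 3 months are read against the 12.6% of all genes called there. Esr1 (ENSMUSG00000019768), the estrogen receptor alpha, was higher by 1.01 (SE 0.12) at 8 days and by 1.85 (SE 0.11) at 3 months, with an interaction of 0.84 (SE 0.16, adjusted p 0.0419). Its libraries labelled mutant overlapped between the times, at 10.7 to 13.8 and 11.2 to 13.4 CPM, while its controls lay at 5.45 to 7.22 and 3.30 to 3.55. Abi3 (ENSMUSG00000018381), an actin regulator, was higher by 0.65 at 8 days (SE 0.11, adjusted p 0.0381) and changed by -0.08 at 3 months (SE 0.10, adjusted p 0.63).

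Sis, Cyp2u1 and Fbp1 of this set had no called interaction. Sis (ENSMUSG00000027790), the brush border sucrase-isomaltase, was higher by 1.74 (SE 0.24) at 8 days and by 2.46 (SE 0.22) at 3 months, and Cyp2u1 (ENSMUSG00000027983), a fatty acid hydroxylase, by 1.84 (SE 0.21) and 2.42 (SE 0.20). Fbp1 (ENSMUSG00000069805), the gluconeogenic fructose bisphosphatase, was higher by 1.90 (SE 0.34) and 3.07 (SE 0.33). Their interactions were 0.72 (SE 0.31), 0.58 (SE 0.28) and 1.17 (SE 0.45), with adjusted p of 0.261, 0.32 and 0.194. These errors leave room for a change in either size, and equal effects were not shown. Conversely, of the 2271 genes called at 3 months, 65.9% had the same sign at 8 days, against 55.5% of all genes tested. Their median effect at 8 days was 0.06 for those higher and -0.07 for those lower at 3 months.

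Several of the named genes share exon positions with another gene, and whether reads were counted by strand is not given in the sources used here. Clec1b overlaps Clec9a, Mzb1 overlaps SPATA24, Tgtp1 overlaps Gm12185 and Kcnab2 overlaps Gm16334 on the same strand. Abi3, Apoa4, Bean1, Bhlhe41, Cd274, Cyp2u1, Fat4, Ghrl, Irs1, Junb, Olfr558, Rimbp2, Slamf7, St3gal6 and St6gal1 overlap a gene on the opposite strand. Their counts are uncertain to that extent.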

How the data were processed

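Ileal RNA of 15 mice was depleted of ribosomal RNA and sequenced, per the labels' protocols, which name TRI-reagent or an RNeasy kit without saying which sample had which. The authors deposited unnormalized read counts for 37620 Ensembl identifiers, in 1 table per cohort. The submitters' processing notes name bcl2fastq 2.17.1.14, Bowtie 1.0.0, TopHat2 2.0.10, Bowtie2 2.1.0, HTSeq 0.6.1 and the build mm9. Strand handling and the annotation release are not given in the sources used here. The tables were joined by identifier. Columns were matched to samples by title, and groups came from the genotype and time labels. GENCODE M21 (GRCm38) gave symbols for 32897 identifiers (87.4%) and the exon overlaps. Promoter sequences came from RefSeq on GRCm38.p6.

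Counts were tested in edgeR 4.0.16 by its quasi-likelihood F test (legacy fit, R 4.3.3) after filterByExpr (minimum count 10) and TMM scaling, in 1 fit of 15 libraries with 4 group means. Calls are genes with an adjusted p (Benjamini-Hochberg over 17959 genes) under 0.05. All 5 contrasts share that fit, and both times enter each interaction. Tests are two-sided. CPM use the TMM-scaled library size. The labels do not say whether libraries of a group came from separate extractions, and p-values measure the spread between these libraries. The lowest chi-square per degree of freedom between libraries of a group was 12.1, so each counted as 1 replicate. Floors cover counting error only. The fit was tested on simulated data first.

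The members, gene lists (35) and the rule for named genes were chosen with earlier results of these data known. Named were Rfx6, the 30 called genes with the smallest p (without unnamed, predicted, clone, immunoglobulin and T-cell receptor genes), every called list member, the 5 largest interactions of each pattern, and up to 4 members with the largest interaction to describe a list. Not all of these are reported here. BC064078, 9930012K11Rik, Pax6, Sis, Cyp2u1, Esr1, Abi3 and Slc10a2 fall outside it, chosen after values had been seen.

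Alternatives were RLE scaling, TMM without the 20 most counted genes, no filter, 10 counts in every library, DESeq2 1.42.0, voom in limma 3.58.1 with and without sample weights, robust and edgeR 4 fits, 1 surrogate variable (sva 3.50.0), Rfx6f/f controls only, each time alone, an absolute log2 difference of at least 1, and each library left out. A B cell score and the Gata4 level as covariates were added after seeing the data. Figures were drawn with matplotlib 3.10.9.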

Additional observations from a re-analysis of the deposited data

Results flagged for a closer look

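Among 177 checks for a library far from the rest of its group, 6 met the criterion, fewer than the 8.85 that chance gives at 1 in 20. The controls of 8 days, the smallest group, were not checked. Labelled mutant replicate 1 of 3 months stood highest in Rfx6, at 3.34 CPM against 2.26 to 2.31 in the rest of its group. Labelled mutant replicate 2 of 3 months stood highest in Socs1, at 4.35 CPM against 2.40 to 2.62, and replicate 3 in Clec1b, at 2.72 CPM against 1.64 to 1.79. Among the controls of 3 months, replicate 4 was highest in Scn3a, at 5.89 CPM against 5.29 to 5.34, replicate 1 was highest in Slc2a2, at 5.60 CPM against 3.17 to 3.36, and replicate 2 was lowest in Sis, at 1355 CPM against 1917 to 1964. None of these libraries crossed into the range of the other genotype label of 3 months for the gene concerned.

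The genotype effect differed between the times for 141 genes by the interaction test. Among them BC064078 was the gene called in opposite directions at the 2 times, with 1.75 at 8 days, -0.56 at 3 months and an interaction of -2.30.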

How the results depend on the processing

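The interaction test called 141 genes. It called 223 without a filter, 248 with 10 counts in every library, 1017 with DESeq2 (426 positive, 591 negative), 41 with limma-voom, 274 with sample quality weights, 47 with 1 surrogate variable, 5 with Rfx6f/f controls only, 1464 from fits of each time alone and 87 with an absolute log2 difference of at least 1. With the B cell score as a covariate it called 2, and with the Gata4 level 9. Leaving out 1 library gave 10 to 749, with 27.5 to 68.3% positive. At 8 days the count of 25 became 9 with 10 counts in every library, 140 with DESeq2, 16 with that time alone and 13 with the B cell score, and 12 to 197 with 1 library left out, the latter without labelled mutant replicate 1 of 8 days. At 3 months the count of 2271 became 383 with Rfx6f/f controls only, 446 with the log2 threshold, 1042 with the B cell score and 1079 to 2318 with 1 library left out. RLE scaling and TMM without the 20 most counted genes moved the median of all genes by at most 0.0168. Among the named genes, the sign turned for Ghrl with the B cell score (0.083) and for Sst with the Gata4 level (-0.064), both uncalled. The causes of these changes were not tested. No paired analysis was possible because replicate numbers follow deposit order and no label ties a mutant to a control animal. For Gip and Ghrl, at 0 to 2 counts in labelled mutants of both times, depth did not allow a further fall to be seen.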

Other observations

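Other epithelial lists held few or 0 called genes in the interaction test (edgeR). Of 17 tested tuft cell genes, the chemosensory cells of the epithelium, 14 were positive with a median of 0.58, 3 at an unadjusted p under 0.05, and 0 were called. Of 17 goblet cell genes 15 were positive at a median of 0.14, and 0 were called. Paneth and antimicrobial genes had a median of -0.33 over 19 genes, and the called member, Reg4, was positive at 2.35. Cytochrome P450 and phase II enzymes had a median of 0.57 over 29 genes, with 8 positive at an unadjusted p under 0.05 and 0 called. Cell cycle genes had a median of -0.15 over 25 genes, with 23 negative, 0 of them at an unadjusted p under 0.05.

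MHC class II genes, which interferon-gamma is known to induce, were negative for all 15 tested genes at a median of -0.53, with 7 at an unadjusted p under 0.05 and 0 called. Their summed level was 8034 to 8768 CPM in controls of 3 months and 3701 to 7602 in libraries labelled mutant of 3 months, without overlap, and 3859 to 6930 CPM over the 7 libraries of 8 days. All 5 tested red blood cell genes were negative at a median of -1.25 and an unadjusted p under 0.05, with 0 called. Their summed level was 27.1 to 62.4 CPM in controls of 3 months and 15.7 to 21.4 in libraries labelled mutant of 3 months.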
